A study of Mus musculus with 24 samples.

Results

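The comparison described here sets 3 RNA-seq libraries of mouse embryonic stem cells (mESCs) labelled Cecr2Δ against 3 libraries of wild-type (WT) cells of the same batch, batch D, which are 6 of the 24 RNA-seq libraries of the series. The libraries were assigned to the groups by their labels, as knock-out or wild-type libraries of batch D, while the comparison itself was chosen with earlier results of these data known. All cells were of 129S6/SvEvTac background, had no treatment and were grown in serum with leukemia inhibitory factor on gelatin, with no feeder layer named in the methods. The knock-out lines were made with CRISPR–Cas9, and each mutant genotype is represented by a single clone selected from the targeted cells, so that a difference between the groups belongs to this clone and cannot be told apart from other differences between the clone and its WT culture. The methods speak of independent replicates without saying how they were separated, so p-values measure the spread between libraries. The model estimated this spread over all 24 libraries together. The other 8 WT libraries, from batches A, B, C and E, were used as a range of WT levels, and the Rsf1Δ and Tip5Δ lines, with 2 libraries and 2 WT libraries each, were used where a change was compared between lines. Total counts were 36126204, 30763154 and 30688035 in WT and 28633337, 34815879 and 36721585 in the libraries labelled Cecr2Δ. The 4 libraries of batch C stand apart: replication-dependent histone genes, whose mRNA lacks a poly(A) tail, summed to 4424 to 6296 normalized CPM there and to 19.9 to 43.8 in the other 20 libraries. The labels give poly(A) RNA for all. With batch C left out of the model, a choice made after seeing the data, 478 genes were called as differentially expressed in place of the 488 given below. At this depth 3 counts correspond to 0.0837 to 0.107 normalized CPM (counts scaled to library size), the unit of all levels given here.

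CECR2 is a bromodomain protein that binds an ISWI ATPase, SNF2H (Smarca5) or SNF2L (Smarca1), in the remodeling complex CERF. ISWI ATPases slide and space nucleosomes, and the accessory subunit is thought to direct where they do so. In the mouse, CECR2 is best known for its part in closure of the neural tube and in the male germ line. Cultures of mESCs in serum are mixed, with most cells expressing pluripotency factors and a few expressing genes of the primitive endoderm, the trophectoderm or a two-cell-like state.

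The mRNA of the targeted gene was not lower in the libraries labelled Cecr2Δ. Cecr2 (gene ID 330409, chromosome 6 from 120666314 to 120771191 in mm10) was at 107, 121 and 110.3 normalized CPM in WT and at 142, 149 and 147 in the libraries labelled Cecr2Δ. Every library labelled Cecr2Δ was above every WT library of batch D, and the difference was within 2-fold (log2 fold change 0.37, SE 0.069, edgeR adjusted p = 0.000154, quasi-likelihood test, Benjamini-Hochberg adjusted over all genes tested). WT libraries of the other batches were at 119 to 152, and in a model without batch the log2 fold change was 0.21 with an edgeR adjusted p of 0.125. The table sums reads over each gene, without a value for single exons, so it does not test whether the deletion is present. The methods state that clones were checked by western blot and by DNA sequencing. The paper reports that no deletion line had detectable protein of its target on western blots. It also reports that precipitation of SNF2H did not recover the deleted subunits. Those data were not used here. Cecr2Δ therefore stands for the label throughout. Among the 10 tested genes nearest to Cecr2, 5 on each side, the edgeR adjusted p ranged from 0.0276 for Atp6v1e1 to 0.96 for Hdhd5. Of the 15 ISWI ATPases and partner subunits, none was a differentially expressed gene (DEG, over 2-fold higher or lower, with an adjusted p under 0.01). Smarca5 was at 376, 312 and 346 in WT and at 309.7, 329 and 336 in Cecr2Δ (log2 fold change -0.087, edgeR adjusted p = 0.3), with overlapping groups. Smarca1 had a log2 fold change of -0.023 (edgeR adjusted p = 0.83). Within 2-fold, Baz1a, which encodes the ACF1 subunit, was lower (log2 fold change -0.47, SE 0.051, edgeR adjusted p = 5.08e-08) and Baz2b was higher (log2 fold change 0.39, SE 0.064, edgeR adjusted p = 3.81e-05). The mean of Baz1a in Cecr2Δ (52.1) lay below all WT libraries, whereas that of Baz2b (39.8) lay within the 29.6 to 53.7 of the other batches. Without batch in the model Baz2b had a log2 fold change of 0.12 (edgeR adjusted p = 0.64).

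Of the 15682 genes tested, 488 (3.11%) were DEGs, 123 increased (0.784%) and 365 decreased (2.33%). Without the fold minimum the directions were near balance, with 1493 genes higher (9.52%) and 1385 lower (8.83%) at an adjusted p under 0.01. Decreased DEGs had a median log2 fold change of -1.61 and a median level of 2.58 normalized CPM in WT. Increased DEGs had a median log2 fold change of 1.29 and a median level of 0.779, and 73 of the 123 were under 1 normalized CPM in WT, where all tested genes had a median of 18.2. Only 8 increased DEGs were at 10 normalized CPM or more in WT, against 83 decreased DEGs. The 3 libraries of one group lay beyond those of the other in 486 of the 488 DEGs, where 38.3% of all tested genes had such groups. The range of the WT libraries of all batches was wider: the mean of the libraries labelled Cecr2Δ lay outside the range of all 11 WT libraries for 303 (83%) of the decreased but for 53 (43.1%) of the increased DEGs, a limit chosen after seeing the data. Against the 9 WT libraries of batches other than C these counts were 322 and 57.

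**Figure D1:**
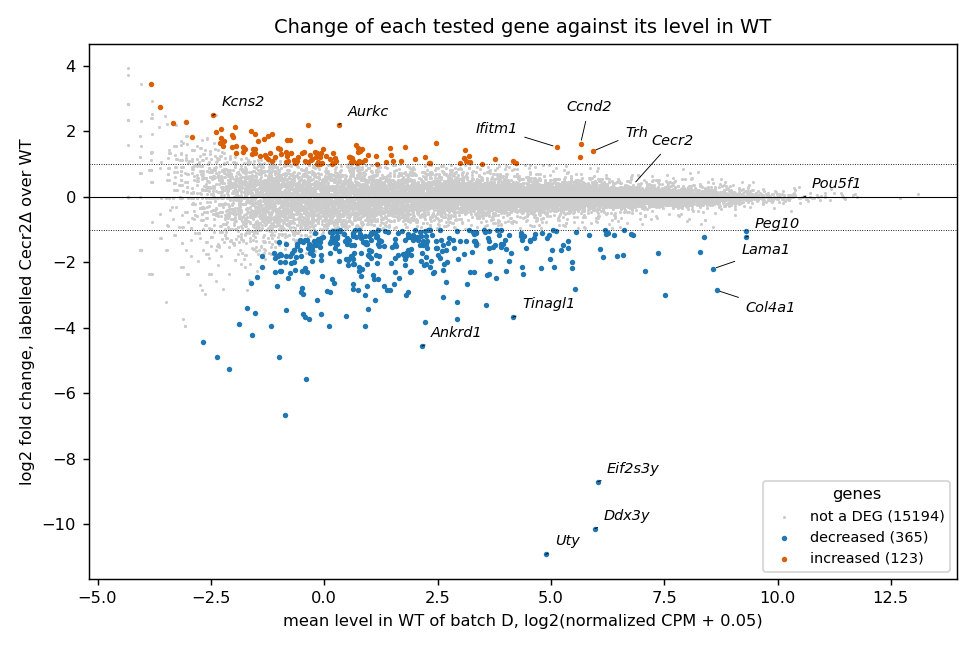
Change of each tested gene (vertical axis, log2 fold change of the libraries labelled Cecr2Δ over WT of batch D) against its mean level in WT of batch D (horizontal axis, log2 of normalized CPM plus 0.05), with 123 increased DEGs in orange, 365 decreased DEGs in blue and dotted lines at a 2-fold change. The deepest decreases are those of 3 Y-linked genes, the decreased DEGs reach levels of several 100 normalized CPM, and most increased DEGs lie at low levels.

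The pluripotency program was present in all 6 libraries. None of the 6 core pluripotency genes was a DEG, and their summed level was 3436 to 3705 normalized CPM in WT and 3892 to 4117 in the libraries labelled Cecr2Δ. Pou5f1, which encodes OCT4, was at 1605, 1361 and 1573 in WT and at 1593, 1435 and 1463 (log2 fold change -0.015, edgeR adjusted p = 0.869), and the groups overlapped. Nanog was at 509.6, 516 and 533 in WT and at 679, 666 and 674, without overlap and within 2-fold (log2 fold change 0.37, SE 0.041, edgeR adjusted p = 5.61e-08). Sox2 (0.29), Klf4 (0.29) and Esrrb (0.21) were likewise higher within 2-fold on the log2 scale, each with an edgeR adjusted p under 0.01, whereas Zfp42, also called Rex1, had 0.086 (edgeR adjusted p = 0.169). The mean of Nanog in Cecr2Δ lay above all 11 WT libraries, while those of Sox2, Klf4 and Esrrb lay within their range. Of 22 naive pluripotency genes, 6 were higher and 3 lower at an adjusted p under 0.01, where 9.52% and 8.83% of all tested genes were. None was a DEG, and Prdm14, a repressor of DNA methylation in the naive state, was the clearest (log2 fold change 0.55, SE 0.055, edgeR adjusted p = 1.71e-08). Of 20 genes of the formative and primed state, 10 were higher and 2 lower (median log2 fold change 0.41, against -0.0022 for all genes tested), and 1 was an increased DEG. That gene was Fgf5, a marker of the epiblast after implantation, at 0.256, 0.228 and 0.232 in WT and 0.782, 0.496 and 0.809 in Cecr2Δ (log2 fold change 1.52, SE 0.38, edgeR adjusted p = 0.00344), and it passed with 1 library left out only where that was Cecr2Δ library 2 (otherwise adjusted p from 0.0112 to 0.0216). Klf4 and Esrrb had an adjusted p over 0.01 without Cecr2Δ library 1 or WT library 1 (0.0141 to 0.0262). With only batch D, Klf4 (0.0186) and Esrrb (0.0129) also had an edgeR adjusted p over 0.01. So did Esrrb with the replicate number as a block (0.0118). Without batch in the model the edgeR adjusted p was 0.0445 for Sox2, 0.126 for Klf4 and 0.157 for Esrrb. The Fgf5 levels of both groups in batch D lay within or below the 0.518 to 2.31 of the other WT libraries. Without batch in the model the log2 fold change of Fgf5 was -0.15.

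Genes of the primitive endoderm formed the largest decreased group among the 43 gene lists, by number of genes. This lineage, which lines the blastocyst cavity and makes basement membrane, is driven by GATA and SOX factors. Of 35 tested members of the primitive endoderm list, 20 were decreased DEGs, none was an increased DEG, and the median log2 fold change was -1.29. Of all tested genes, 2.33% were decreased and 0.784% increased DEGs. At an adjusted p under 0.01 alone, 28 members were lower and 2, Grb10 and Nid1, were higher, against 8.83% and 9.52% of all tested genes. All 20 stayed among the decreased DEGs whose mean lay outside the range of all 11 WT libraries. This range adds little here, because WT of batch D was already the lowest WT group in the summed list. It was at 4560 to 4877 normalized CPM, against 6706 to 12425 in the other WT libraries. In bulk RNA, fewer cells of a type and less RNA per cell cannot be told apart.

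Among the transcription factors of the lineage, Gata6 was at 12, 13 and 11.3 normalized CPM in WT and at 2.06, 2.77 and 2.04 in the libraries labelled Cecr2Δ (log2 fold change -2.39, SE 0.13, edgeR adjusted p = 3.82e-14). Gata4 was at 23, 31.7 and 27.9 in WT and at 7.64, 5.17 and 5.47 in Cecr2Δ (log2 fold change -2.19, SE 0.11, edgeR adjusted p = 3.42e-14). Sox17 went from 6.04, 6.83 and 6.28 to 1.53, 1.08 and 0.642 (log2 fold change -2.59, SE 0.16, edgeR adjusted p = 9.94e-13). In each of the 3 genes every Cecr2Δ-labelled library was below every WT library, without overlap. Sox7 (-1.71) and Foxa2 (-1.81) fell as well on the log2 scale, with edgeR adjusted p-values of 6.69e-14 and 7.11e-08. Gata6os, the divergent long non-coding RNA beside Gata6, fell from 0.626, 1.11 and 0.496 to 0.0356, 0.0584 and 0.0558 (log2 fold change -3.74, SE 0.48, edgeR adjusted p = 9.89e-07), and its counts may hold reads of Gata6 because the use of strand in counting is not stated.

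Receptors and secreted proteins of the lineage fell too. Pdgfra, the receptor that marks primitive endoderm cells, was at 17.3, 15.9 and 15.1 in WT and at 3.24, 3.56 and 3.15 in the libraries labelled Cecr2Δ (log2 fold change -2.28, SE 0.11, edgeR adjusted p = 5.28e-15). Plat, tissue plasminogen activator, fell from 3.16, 3.77 and 3.47 to 0.320, 0.555 and 0.391 (log2 fold change -3.00, SE 0.20, edgeR adjusted p = 4.33e-12), and Thbd, thrombomodulin, fell from 3.05, 3.19 and 2.38 to 0.462, 0.263 and 0.614 (log2 fold change -2.67, SE 0.24, edgeR adjusted p = 1.92e-09). Dab2, an endocytic adaptor among the fixed markers, was lower within 2-fold (log2 fold change -0.89, SE 0.076, edgeR adjusted p = 8.5e-10). The basement membrane genes gave the highest counts of the list. Col4a1 was at 386, 409 and 416 in WT and at 59.8, 56.8 and 50.9 in Cecr2Δ (log2 fold change -2.86, SE 0.086, edgeR adjusted p = 1.9e-19), and its head-to-head neighbour Col4a2 at 177, 182 and 195 and 24.4, 23.8 and 21.2 (log2 fold change -3.00, SE 0.085, edgeR adjusted p = 4.98e-20). The laminin chains Lama1 (log2 fold change -2.20, SE 0.10, edgeR adjusted p = 2.99e-15) and Lamb1 (log2 fold change -1.67, SE 0.058, edgeR adjusted p = 4.33e-18) and Sparc, a collagen-binding glycoprotein (log2 fold change -1.06, SE 0.042, edgeR adjusted p = 1.11e-16), fell too.

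Both groups of batch D held less endoderm RNA than the other WT libraries. The summed level of the 7 fixed endoderm markers Gata4, Gata6, Sox17, Sox7, Foxa2, Pdgfra and Dab2 was 101 to 117 normalized CPM in WT of batch D and 29.5 to 34.1 in the libraries labelled Cecr2Δ, against 145 to 353 in WT of the other batches and 242 to 353 without batch C. Of these 7 markers, 6 were decreased DEGs, and none was at 0 counts in Cecr2Δ. Col4a1, for instance, was at 843 to 1886 in the 8 other WT libraries, above the WT libraries of batch D. The list had lower medians also in Rsf1Δ and Tip5Δ, each against its own WT, at -1.35 and -2.11. The change differed from that in Rsf1Δ for 7 of the 35 genes and from that in Tip5Δ for 5, at the same thresholds as a DEG, which 4.2% and 2.42% of all tested genes passed.

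**Figure D2:**
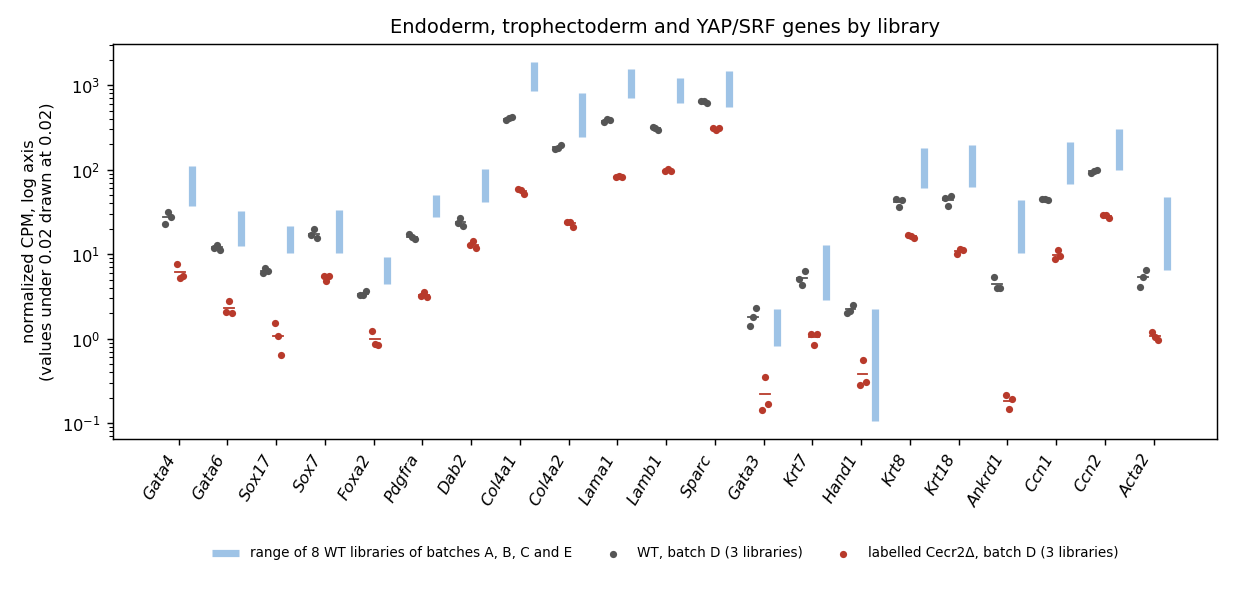
Level of 21 genes (vertical axis, normalized CPM on a log scale) in each of the 3 WT libraries of batch D (grey) and the 3 libraries labelled Cecr2Δ (red), with a line at each group's mean and a bar for the range of the 8 WT libraries of the other batches (blue). The red points lie below the grey points for each gene shown, and for most endoderm and YAP/SRF genes the blue bar lies above both.

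Trophectoderm genes formed a second decreased group, at lower levels. Of 22 tested members, 10 were decreased DEGs, against 2.33% of all tested genes, and none was increased. The median log2 fold change was -0.93. Gata3, a trophoblast transcription factor, was at 1.39, 1.79 and 2.28 in WT and at 0.142, 0.350 and 0.167 in the libraries labelled Cecr2Δ (log2 fold change -2.99, SE 0.30, edgeR adjusted p = 1.54e-08). Hand1, which acts in trophoblast giant cells and mesoderm, was at 2.02, 2.15 and 2.51 in WT and at 0.284, 0.555 and 0.307 (log2 fold change -2.51, SE 0.24, edgeR adjusted p = 6.72e-09). Cdx2, the trophectoderm master regulator, was at 0.740, 1.20 and 0.860 and 0.498, 0.292 and 0.530 and did not pass (log2 fold change -1.08, SE 0.32, edgeR adjusted p = 0.0127). The keratins of simple epithelia fell, namely Krt7 (log2 fold change -2.33, SE 0.22, edgeR adjusted p = 2.9e-09), Krt18 (log2 fold change -2.01, SE 0.082, edgeR adjusted p = 1.82e-16) and Krt8 (log2 fold change -1.34, SE 0.074, edgeR adjusted p = 1.02e-13). Krt18 was at 46.7, 37.1 and 49 in WT and at 10.1, 11.6 and 11.2 in Cecr2Δ, and Krt8 and Krt18 have many processed pseudogenes that could share their reads. The summed level of the 5 fixed trophectoderm markers was 9.34 to 12 in WT and 2.04 to 2.26 in the libraries labelled Cecr2Δ, and 3 of the 4 tested were decreased DEGs. Of the 10 decreased DEGs, 8 lay outside the range of all 11 WT libraries, and all 10 outside that of the 9 WT libraries of batches other than C. The list median was -0.86 in Rsf1Δ and -0.34 in Tip5Δ, and the change differed from that in each of these lines for 5 of the 22 genes, against 4.2% (Rsf1Δ) and 2.42% (Tip5Δ) of all tested genes.

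Targets of the transcription factors YAP/TEAD and SRF, which respond to cell tension and the actin cytoskeleton, also fell. Of 31 tested members, 10 were decreased DEGs, none was increased, and 18 were lower at an adjusted p under 0.01 with none higher (median log2 fold change -0.66, against -1.50 in Rsf1Δ and -0.31 in Tip5Δ). Of all tested genes, 2.33% were decreased DEGs and 8.83% were lower at that adjusted p. With no batch term and batch C left out, 17 of the 31 were decreased DEGs. The change differed from that in Rsf1Δ for 11 of the 31 genes and from that in Tip5Δ for 5, against 4.2% and 2.42% of all tested genes. Ankrd1, a titin-binding YAP target, was at 5.32, 3.94 and 3.97 in WT and at 0.213, 0.146 and 0.195 in the libraries labelled Cecr2Δ (log2 fold change -4.56, SE 0.22, edgeR adjusted p = 1.75e-14). Ccn1, a secreted matricellular protein also called CYR61, was at 44.4, 45 and 44 in WT and at 8.82, 11.1 and 9.51 (log2 fold change -2.17, SE 0.064, edgeR adjusted p = 1.07e-19). Acta2, smooth muscle actin, went from 4.13, 5.30 and 6.55 to 1.21, 1.05 and 0.976 (log2 fold change -2.30, SE 0.17, edgeR adjusted p = 2.49e-11). No Cecr2Δ-labelled library reached the lowest WT library of any of the 3 genes. Crim1 (-2.15), Thbs1 (-1.98), Anxa3 (-1.97), Ccn2 (-1.77), Lmna (-1.12), Anxa1 (-1.08) and Amotl2 (-1.01) are the other decreased DEGs of the list, with their log2 fold changes. Anxa1 was under 2-fold without Cecr2Δ library 1, and Amotl2 without Cecr2Δ library 3 or WT library 2. Many of these genes are also expressed in endoderm and epithelium, and the endoderm markers fell in the same libraries, and their part in this result was not tested.

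The promoters of these genes are shown because most of the decreased ones share a short sequence. TEAD factors bind the letters CATTCC, and RefSeq (GRCm38.p6) windows of the 250 bases before the start of a gene were searched for CATTCC on both strands, that is for CATTCC or GGAATG. A window was held for 7 of the 10 decreased DEGs of the list, and 6 of the 7 genes, all but Lmna, had a match. Among the members of the list that were no DEG, 8 of 18 genes had one, and over all genes tested 11% of 15447 windows did. The share was 18% of 345 windows for all decreased DEGs and 15.3% of 111 windows for all increased DEGs. An exact match to the CArG box, the SRF motif (CC, then 6 letters that are A or T, then GG), was found in none of the 7 genes and in 5 of the 18, and near matches were not counted. These matches are a description of letters and do not show binding. The windows of 3 genes with the deepest decreases of the list, written 5′ to 3′ on the strand of the gene with matches in capitals, lie at chr19:36119845-36120094 (minus strand, Ankrd1, matches starting 210 and 123 bases before the start), chr3:145649986-145650235 (minus strand, Ccn1, 103 bases before) and chr19:34255374-34255623 (minus strand, Acta2, 146 bases before).
Ankrd1: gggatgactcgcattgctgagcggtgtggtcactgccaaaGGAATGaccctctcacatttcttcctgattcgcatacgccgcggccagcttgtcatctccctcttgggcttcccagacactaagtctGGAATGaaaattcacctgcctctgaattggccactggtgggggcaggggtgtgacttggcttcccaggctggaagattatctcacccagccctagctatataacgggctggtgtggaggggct
Ccn1: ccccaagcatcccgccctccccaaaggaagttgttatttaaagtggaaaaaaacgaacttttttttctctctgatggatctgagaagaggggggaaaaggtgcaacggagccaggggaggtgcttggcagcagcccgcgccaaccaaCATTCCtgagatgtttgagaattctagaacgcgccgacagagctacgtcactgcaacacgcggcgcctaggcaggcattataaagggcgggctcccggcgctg
Acta2: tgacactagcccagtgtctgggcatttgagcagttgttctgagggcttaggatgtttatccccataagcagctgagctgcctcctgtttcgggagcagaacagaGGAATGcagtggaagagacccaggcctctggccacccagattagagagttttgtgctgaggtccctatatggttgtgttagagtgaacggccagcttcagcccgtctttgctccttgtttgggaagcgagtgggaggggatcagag

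Of 86 tested matrix and receptor genes, 8 were decreased DEGs and none was increased, where 2.33% of all tested genes were decreased DEGs. At an adjusted p under 0.01, 20 were lower and 4 higher, against 8.83% and 9.52% of all tested genes, with a median log2 fold change of -0.18. The 8 decreased DEGs were Col4a1, Col4a2, Lama1, Lamb1, Adamts9 (-1.57), Col7a1 (-1.47), Col27a1 (-1.43) and Adamts7 (-1.35), on the log2 scale. Without batch in the model 14 of the 86 were decreased DEGs, and 16 with batch C left out as well. P4ha2, which hydroxylates prolines of collagen and is the 1 DEG among 32 hypoxia and glycolysis genes, fell from 31.8, 32.7 and 32.4 to 10.4, 10.7 and 10.2 (log2 fold change -1.63, SE 0.059, edgeR adjusted p = 1.29e-17). Of 11 tested fibroblast genes, none was a DEG, and 3 were lower and none higher at an adjusted p under 0.01 (median log2 fold change -0.37). The full fibroblast list summed to 75 to 76.5 normalized CPM in WT and 59.5 to 62.8 in the libraries labelled Cecr2Δ. Its 5 fixed markers summed to 16.4 to 18.3 and 15.6 to 15.8, of which Thy1, also expressed outside fibroblasts, made up 14 to 14.7 and 13.8 to 14.2, and Postn was at 0 counts in all 6 libraries. Among 54 tested bivalent developmental regulators, genes that carry both an active and a Polycomb mark in mESCs, 12 were decreased DEGs and 1, Tbx4, was increased (no DEG without WT library 1), with a median log2 fold change of -0.28. Of all tested genes, 2.33% were decreased and 0.784% increased DEGs. Of the 12, Gata3, Sox17, Hand1, Gata6, Gata4 and Foxa2 are also endoderm or trophectoderm genes, while Runx1, Pax1, Meis1, Msx2 and Barx1 are among those of other lineages. Pax1 was no DEG without Cecr2Δ library 1 or 2 or WT library 3. Barx1 was one only where WT library 1 was left out among these fits (otherwise adjusted p from 0.0159 to 0.0776 for these 2 genes, edgeR). With only batch D neither Pax1 nor Barx1 was a DEG (0.0175 and 0.0231). Barx1 was also none with the replicate number as a block (0.0115, edgeR adjusted p). Of 23 neural genes, 3 were higher and 3 lower at an adjusted p under 0.01, where 9.52% and 8.83% of all tested genes were. The list summed to 607 to 624 normalized CPM in WT, 813 to 830.2 in the libraries labelled Cecr2Δ and 461 to 663 in the other WT libraries. Stmn2, a microtubule regulator of neurons, had the highest level in the list, at 312, 292 and 304 in WT and at 505, 504 and 510.3 (log2 fold change 0.74, SE 0.049, edgeR adjusted p = 4.16e-12, within 2-fold). The 4 fixed neural markers summed to 61.8 to 75.1 in WT and 89.1 to 103 in the libraries labelled Cecr2Δ, against 55.1 to 69.5 in the other WT libraries. Of these Tubb3, a neuronal tubulin, was higher within 2-fold (log2 fold change 0.53, SE 0.073, edgeR adjusted p = 2.43e-06), and Sox1 and Pax6 had log2 fold changes of -0.086 and -0.28 that did not pass. Vgf, a secreted neuropeptide precursor, was the 1 DEG of the neural list (log2 fold change -1.82, SE 0.28, edgeR adjusted p = 1.64e-05), and of 31 neural tube closure genes none was. In the latter list 9 were higher and 4 lower at an adjusted p under 0.01, against 9.52% and 8.83% of all tested genes. Its smallest adjusted p was that of Folr1, a folate receptor (log2 fold change -0.61, SE 0.054, edgeR adjusted p = 1.31e-09).

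The deepest decreases were those of Y-linked genes. All 4 tested genes of the Y chromosome were decreased DEGs, against 1.5% to 3.33% of the tested genes on each autosome. Uty, a histone demethylase homologue, was at 29.7, 28.8 and 30.3 normalized CPM in WT and at 0, 0 and 0.0279 in the libraries labelled Cecr2Δ, where 1 count in all was left. The ratio of WT to Cecr2Δ was 2907, with a 95% exact interval of 521 to 114854 that covers counting error only. Ddx3y, an RNA helicase, was at 69.7, 59.2 and 59.6 and 0.107, 0.0292 and 0.0279 (log2 fold change -10.13, SE 0.20, edgeR adjusted p = 1.43e-23). Eif2s3y, a translation initiation factor subunit, was at 72, 58.8 and 66.2 and 0.107, 0.204 and 0.139 (log2 fold change -8.70, SE 0.15, edgeR adjusted p = 1.29e-23). These genes were at 28.8 or more in each WT library and at 0.204 or less in each Cecr2Δ-labelled library. Uba1y, the Y copy of an ubiquitin-activating enzyme, fell less (log2 fold change -2.65, SE 0.40, edgeR adjusted p = 1.47e-05), and it has a close X-linked copy. All WT libraries of the other batches held these transcripts, with Ddx3y at 64.3 to 95.2. None of the 9 X-linked homologues of Y-linked genes was a DEG. Xist, the RNA that coats an inactive X chromosome, was at 12.2, 11.4 and 7.41 in WT and at 5.33, 7.47 and 6.92 in Cecr2Δ, with overlapping groups and within 2-fold (log2 fold change -0.65, SE 0.17, edgeR adjusted p = 0.00445). Its adjusted p was over 0.01 when Cecr2Δ library 1 or 3 or WT library 1 or 2 was left out (0.0121 to 0.0421). With the replicate number as a block it was 0.0135 (edgeR). Xist and its antisense gene Tsix cannot be told apart where strand is not used.

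The X chromosome held a second group, the Rhox cluster of reproductive homeobox genes. Of 552 tested X-linked genes, 25 (4.53%) were decreased DEGs and 4 were increased. Of 6 tested Rhox genes, 4 were decreased DEGs, with a median log2 fold change of -1.69 over the 6. Rhox5, also called Pem, was at 79, 59 and 74.6 in WT and at 19.2, 20.5 and 19.8 in the libraries labelled Cecr2Δ (log2 fold change -1.84, SE 0.083, edgeR adjusted p = 1.38e-15). Rhox13 (log2 fold change -2.0, SE 0.17, edgeR adjusted p = 4.96e-10), Rhox6 (log2 fold change -1.75, SE 0.14, edgeR adjusted p = 3.12e-10) and Rhox9 (log2 fold change -1.64, SE 0.16, edgeR adjusted p = 6.86e-09) fell as well, and near-identical copies in this cluster make the split of reads among its genes uncertain. The list median was -1.62 in Rsf1Δ and -1.53 in Tip5Δ.

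Dnmt3l, a cofactor of de novo DNA methylation, was at 348, 316 and 342 normalized CPM in WT and at 146, 144 and 143 in the libraries labelled Cecr2Δ (log2 fold change -1.21, SE 0.046, edgeR adjusted p = 3.09e-17), and it was the 1 DEG among 19 genes of DNA methylation and imprint maintenance. Of 48 tested germline genes that DNA methylation silences, 3 were decreased DEGs, Tex13b (-1.77), Mageb4 (-1.45) and Sohlh2 (-1.10 on the log2 scale), while 7 were higher and 11 lower at an adjusted p under 0.01. Of all tested genes, 2.33% were decreased DEGs, and 9.52% were higher and 8.83% lower at that adjusted p. Of 43 tested imprinted genes outside distal chromosome 7 and the Dlk1-Dio3 domain, 3 were decreased DEGs, Peg10, Sfmbt2 and Rhox5, while 10 were higher and 9 lower at an adjusted p under 0.01. Peg10, a retrotransposon-derived gene needed in the placenta, was at 608, 663 and 618 in WT and at 262, 259.5 and 281 (log2 fold change -1.23, SE 0.082, edgeR adjusted p = 4.51e-12). Sfmbt2, a placental Polycomb-related gene, fell from 62.1, 74.1 and 67.1 to 20.8, 22.4 and 23.5 (log2 fold change -1.61, SE 0.082, edgeR adjusted p = 1.8e-14). Igf2, the insulin-like growth factor of distal chromosome 7, was at 34.5, 41.2 and 39.9 in WT and at 13.6, 14.2 and 13.6 (log2 fold change -1.48, SE 0.088, edgeR adjusted p = 4.98e-13), and the Cecr2Δ libraries lay within the 8.98 to 94.2 of the other WT libraries but below the 37.5 to 94.2 of those without batch C. Of 15 tested imprinted genes of distal chromosome 7, Igf2 was the 1 DEG. In the Dlk1-Dio3 domain none of 7 genes was a DEG, and Rian, a maternally expressed non-coding RNA, was higher within 2-fold (log2 fold change 0.47, SE 0.05, edgeR adjusted p = 4.47e-08).

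**Figure D3:**
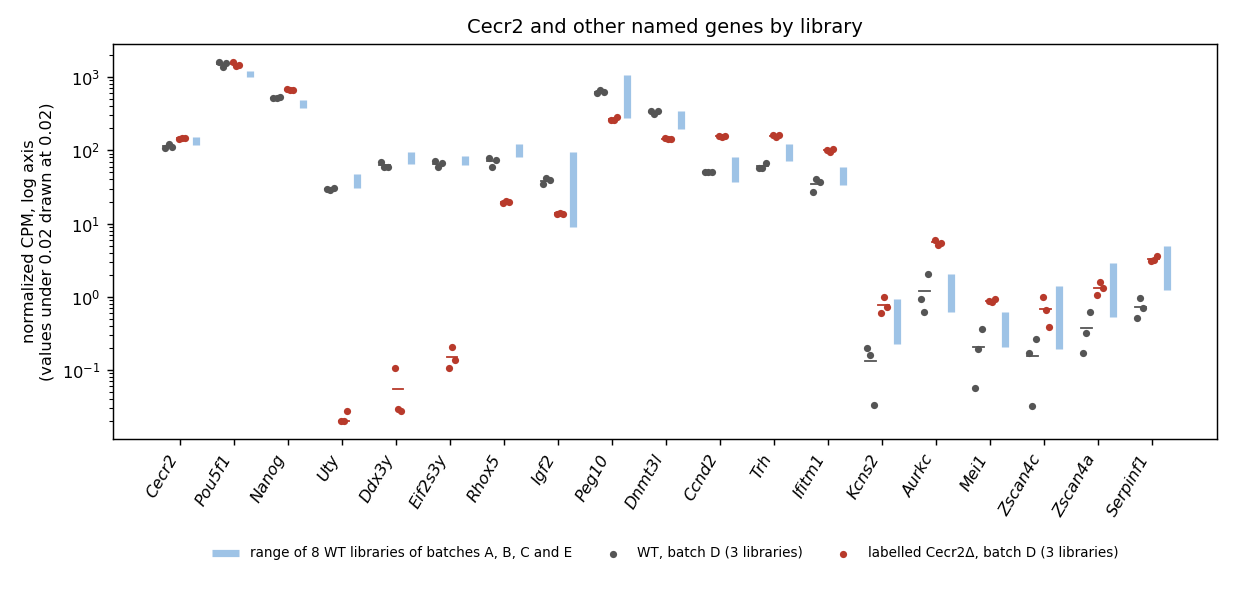
Level of 19 genes (vertical axis, normalized CPM on a log scale, values under 0.02 drawn at 0.02) in each WT library of batch D (grey) and each library labelled Cecr2Δ (red), with a line at each group's mean and a bar for the range of the 8 WT libraries of the other batches (blue). Cecr2 is slightly higher in Cecr2Δ, the 3 Y-linked genes drop to a few counts or none, Ccnd2, Trh and Ifitm1 rise beyond the WT range, and the Zscan4 genes rise within it.

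Increases were fewer, and the clearest were single genes at moderate levels. Ccnd2, cyclin D2, which drives entry into the cell cycle (gene ID 12444, chromosome 6 from 127125162 to 127152188), was at 49.9, 51.2 and 49.9 normalized CPM in WT and at 155, 152 and 158 in the libraries labelled Cecr2Δ (log2 fold change 1.62, SE 0.064, edgeR adjusted p = 7.09e-17). Ifitm1, an interferon-induced membrane protein also seen in early germ cells, was at 27.2, 40.7 and 36.7 in WT and at 102, 94.1 and 103 (log2 fold change 1.52, SE 0.092, edgeR adjusted p = 6.46e-13). Trh, the precursor of thyrotropin-releasing hormone, was picked after its values were seen, at 57.2, 56.6 and 67.7 and 160.1, 151 and 164 (log2 fold change 1.39, SE 0.057, edgeR adjusted p = 1.65e-16). All Cecr2Δ-labelled libraries were above all 11 WT libraries for these 3 genes, whose other WT libraries reached 80.0, 59.3 and 123. In its list of 18 Wnt targets the other DEG, Dkk1, a Wnt antagonist, fell (log2 fold change -1.24, SE 0.25, edgeR adjusted p = 0.00047).

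Among increased DEGs with no overlap between groups and a mean of at least 10 counts, the largest by fold were at low levels. Kcns2, a potassium channel subunit, was at 0.199, 0.163 and 0.0331 in WT and at 0.604, 0.992 and 0.725 in the libraries labelled Cecr2Δ (log2 fold change 2.49, SE 0.40, edgeR adjusted p = 3.01e-05). Its mean of 0.774 in Cecr2Δ lay within the 0.230 to 0.945 of the other WT libraries but above the 0.646 reached without batch C. Aurkc, the Aurora kinase of meiosis, was at 0.939, 0.618 and 2.05 in WT and at 5.97, 5.14 and 5.47 (log2 fold change 2.21, SE 0.25, edgeR adjusted p = 1.21e-07), above the 0.613 to 2.06 of the other WT libraries. Mei1, a meiosis gene, was at 0.0569, 0.195 and 0.364 and 0.889, 0.847 and 0.921 (log2 fold change 2.13, SE 0.38, edgeR adjusted p = 9.44e-05). Serpinf1, a secreted serpin, rose from 0.512, 0.976 and 0.695 to 3.09, 3.15 and 3.60 (log2 fold change 2.18, SE 0.20, edgeR adjusted p = 2.32e-09), within the 1.23 to 4.87 of the other WT libraries. Rac2, a small GTPase of blood cells (2.02), Ggt6 (1.97), Fut1 (1.91), D130017N08Rik (1.89) and Acot3 (1.81) had log2 fold changes near 2, with edgeR adjusted p-values from 1.75e-06 for Fut1 to 0.00304 for Ggt6. The mean of Fut1 in Cecr2Δ (1.53) lay within the 0.884 to 2.61 of the other WT libraries and that of Ggt6 (0.541) within their 0.157 to 0.737, while the means of Mei1, Rac2, D130017N08Rik and Acot3 lay above all other WT libraries. Without batch in the model, Kcns2, Serpinf1, Fut1 and Ggt6 had edgeR adjusted p-values of 0.155, 0.558, 0.791 and 0.677. Ggt6 was no DEG without Cecr2Δ library 2 or WT library 1 or 3, and D130017N08Rik was none without Cecr2Δ library 3 or WT library 1 (adjusted p from 0.0119 to 0.0288).

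Of 13 tested genes of the two-cell-like state, a rare state in which mESCs express genes of the two-cell embryo, 4 were increased DEGs and none decreased, with a median log2 fold change of 0.70. Of all tested genes, 0.784% were increased DEGs. A test against a 2-fold change called 0 genes of the list. The list median was 0.71 in Rsf1Δ, from which the change of no gene differed at the thresholds of a DEG, and -1.48 in Tip5Δ, from which 4 differed. Zscan4c was at 0.171, 0.0325 and 0.265 normalized CPM in WT and at 0.995, 0.671 and 0.391 in the libraries labelled Cecr2Δ (log2 fold change 2.07, SE 0.51, edgeR adjusted p = 0.00334). Zscan4a (log2 fold change 1.87, SE 0.38, edgeR adjusted p = 0.000461), Zscan4d (log2 fold change 1.34, SE 0.33, edgeR adjusted p = 0.00267) and Gm8300 (log2 fold change 1.92, SE 0.29, edgeR adjusted p = 1.29e-05) were the other 3, and copies of Zscan4 are nearly identical, so that they are not independent. The summed level of the list was 3.19 to 5.42 in WT and 7.03 to 8.57 in Cecr2Δ, against 7.52 to 15 in the other WT libraries. None of the 4 lay outside the range of all 11 WT libraries. Without batch in the model none of the 4 was a DEG, but 2 were without Cecr2Δ library 1, Cecr2Δ library 2 or WT library 2. Without WT library 1, 3 were. With only batch D Zscan4c was no DEG (edgeR adjusted p = 0.0106), and with the replicate number as a block Zscan4d was none (0.0108).

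Some groups shifted by less than 2-fold. Of 32 genes of the ATF4 amino acid response, 20 were higher and 1 lower at an adjusted p under 0.01, with a median log2 fold change of 0.36, against 9.52% higher and 8.83% lower among all genes. The list summed to 5488 to 5642 normalized CPM in the libraries labelled Cecr2Δ, within the 4480 to 6265 of the other WT libraries. Pycr1, an enzyme of proline synthesis, was at 17, 19.06 and 17.7 in WT and at 39.3, 38.4 and 36.5 (log2 fold change 1.09, SE 0.059, edgeR adjusted p = 7.78e-14), and Nupr1, a stress-induced regulator, at 11.1, 7.45 and 8.57 and 22, 21.3 and 21.2 (log2 fold change 1.24, SE 0.11, edgeR adjusted p = 1.46e-09), and both were increased DEGs that lay within the range of all 11 WT libraries. Atf4 itself was higher within 2-fold (log2 fold change 0.45, SE 0.048, edgeR adjusted p = 4.38e-08), and Atf3, a stress factor that other pathways also induce, was a decreased DEG (log2 fold change -1.27, SE 0.12, edgeR adjusted p = 3.66e-09). Of 41 clustered protocadherins, adhesion genes of neurons that share constant exons within a cluster, 22 were higher, none lower and none a DEG (median 0.39), and the shared exons mean that these genes do not count separately. The list summed to 1408 to 1510 normalized CPM in the libraries labelled Cecr2Δ, within the 852 to 1701 of the other WT libraries. Of 25 genes of cholesterol synthesis and uptake, 10 were higher, none lower and none a DEG (median 0.18), with Fdft1, squalene synthase, the clearest (log2 fold change 0.49, SE 0.054, edgeR adjusted p = 8.37e-08). In the MHC class I and interferon list of 24 genes, Ifitm1 and H2-Q2 (log2 fold change 1.70, SE 0.38, edgeR adjusted p = 0.0012) were increased DEGs, while 6 genes were higher and 4 lower at an adjusted p under 0.01, and H2-Q2 has near-identical relatives. Gdf15, a secreted stress cytokine, was the 1 DEG among 30 p53 targets (log2 fold change 1.09, SE 0.23, edgeR adjusted p = 0.000547), and 3 of 22 endoplasmic reticulum chaperone genes were higher and 6 lower, none a DEG. Gdf15 was no DEG without Cecr2Δ library 2 or with only batch D (edgeR adjusted p = 0.0125 and 0.0127), without WT library 1 (log2 fold change 0.88) or without batch in the model. At an adjusted p under 0.01, 8 of the 30 p53 targets were higher and 3 lower.

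Lists of signaling and chromatin genes each held 0 to 2 DEGs, where 2.33% of all tested genes were decreased and 0.784% increased DEGs. In the FGF/ERK list of 22 genes, the feedback genes Phlda1 (-1.46) and Dusp4 (-1.17) fell, in the Nodal and BMP list of 20 genes Id2, a BMP target (-1.05), and Msx2 (-1.07), and in the LIF and STAT3 list of 17 genes Osmr, the oncostatin M receptor (-1.66), and Rhox5, all as log2 fold changes. At an adjusted p under 0.01, 4 genes of the FGF/ERK list were higher and 6 lower, 6 of the Nodal and BMP list higher and 4 lower (median log2 fold change 0.19), and 3 of the LIF and STAT3 list higher and 5 lower. Nodal itself (0.30) and its feedback inhibitors Lefty1 (0.86), Lefty2 (0.70) and Smad7 (0.38) were higher within 2-fold, and the BMP targets Id1 (-0.72) and Id3 (-0.44) were lower, all on the log2 scale with an edgeR adjusted p under 0.01. Kdr, a VEGF receptor of mesoderm, rose (log2 fold change 1.03, SE 0.19, edgeR adjusted p = 0.000141), and Hand1 was the other DEG among 21 genes of primitive streak and mesoderm. The mean of Kdr in Cecr2Δ (2.23) lay within the 1.26 to 2.41 of the other WT libraries. Without batch in the model its edgeR adjusted p was 0.16. The metallothioneins Mt1, at 48.2, 51.5 and 41.7 in WT and 23, 21.8 and 22 in the libraries labelled Cecr2Δ (log2 fold change -1.08, SE 0.07, edgeR adjusted p = 3.23e-12), and Mt3 (log2 fold change -1.45, SE 0.21, edgeR adjusted p = 6.83e-06) were the DEGs among 20 genes of metal and oxidative stress. Of 35 Polycomb genes, Phf19, a PRC2 cofactor, fell (log2 fold change -1.17, SE 0.086, edgeR adjusted p = 3.86e-11), and of 31 other chromatin remodelers Smarca2, the BRM ATPase of SWI/SNF (log2 fold change -1.07, SE 0.13, edgeR adjusted p = 5.34e-07). Of 30 epithelial adhesion genes, Krt8 and Krt18 were the DEGs, while 13 genes were lower and 2 higher at an adjusted p under 0.01 (median log2 fold change -0.25). Without batch in the model 8 of the 30 were decreased DEGs, and 9 with batch C left out as well. Of 16 mesenchymal genes Sparc was the DEG, while 3 were lower and 1, Tgfbi, higher. None of 10 CTCF and cohesin genes was a DEG, and Wapl, the cohesin release factor, was higher within 2-fold (log2 fold change 0.23, SE 0.049, edgeR adjusted p = 0.000551). The mean of Wapl in Cecr2Δ lay within the range of all 11 WT libraries but above the 9 of batches other than C. Without batch in the model its edgeR adjusted p was 0.525. Single DEGs stood in 2 further lists, Hoxc13 among 14 Hox genes (log2 fold change 1.10, SE 0.25, edgeR adjusted p = 0.00135) and H3c14 among 60 replication-dependent histone genes (log2 fold change 1.29, SE 0.27, edgeR adjusted p = 0.00063), and both lay within the range of all 11 WT libraries and of the 9 of batches other than C. Without batch in the model their sign turned, with log2 fold changes of -0.43 for Hoxc13 and -0.39 for H3c14. Of 88 RNAs without a poly(A) tail, Snord12 (-1.08), Snord69 (-1.13) and Terc were decreased DEGs. The means of Snord12 and Snord69 in Cecr2Δ, and that of Mt3, lay within the range of all 11 WT libraries. Terc, the telomerase RNA, rests on 10 counts in WT and 0 in Cecr2Δ, at least 3.41-fold lower against a limit of 3 counts over the group, and it had too few counts to be tested with batch C left out. Several of these calls were lost when 1 library was left out. Hoxc13 was no DEG without WT library 1, and H3c14 was none without Cecr2Δ library 2. Snord69 was none without Cecr2Δ library 1 or 2 or WT library 1 or 2. Terc was none without Cecr2Δ library 1, 2 or 3 or WT library 2 or 3. The edgeR adjusted p of these genes was then from 0.0103 to 0.0393. Snord12 was under 2-fold without Cecr2Δ library 3 (log2 fold change -0.91). The Nodal and BMP list kept 1 of its 2 DEGs without Cecr2Δ library 1 and 0 without WT library 3, and the lists of remodelers and of streak and mesoderm genes lost Smarca2 and Kdr without Cecr2Δ library 1, and the latter lost Kdr also without WT library 1.

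**Figure D4:**
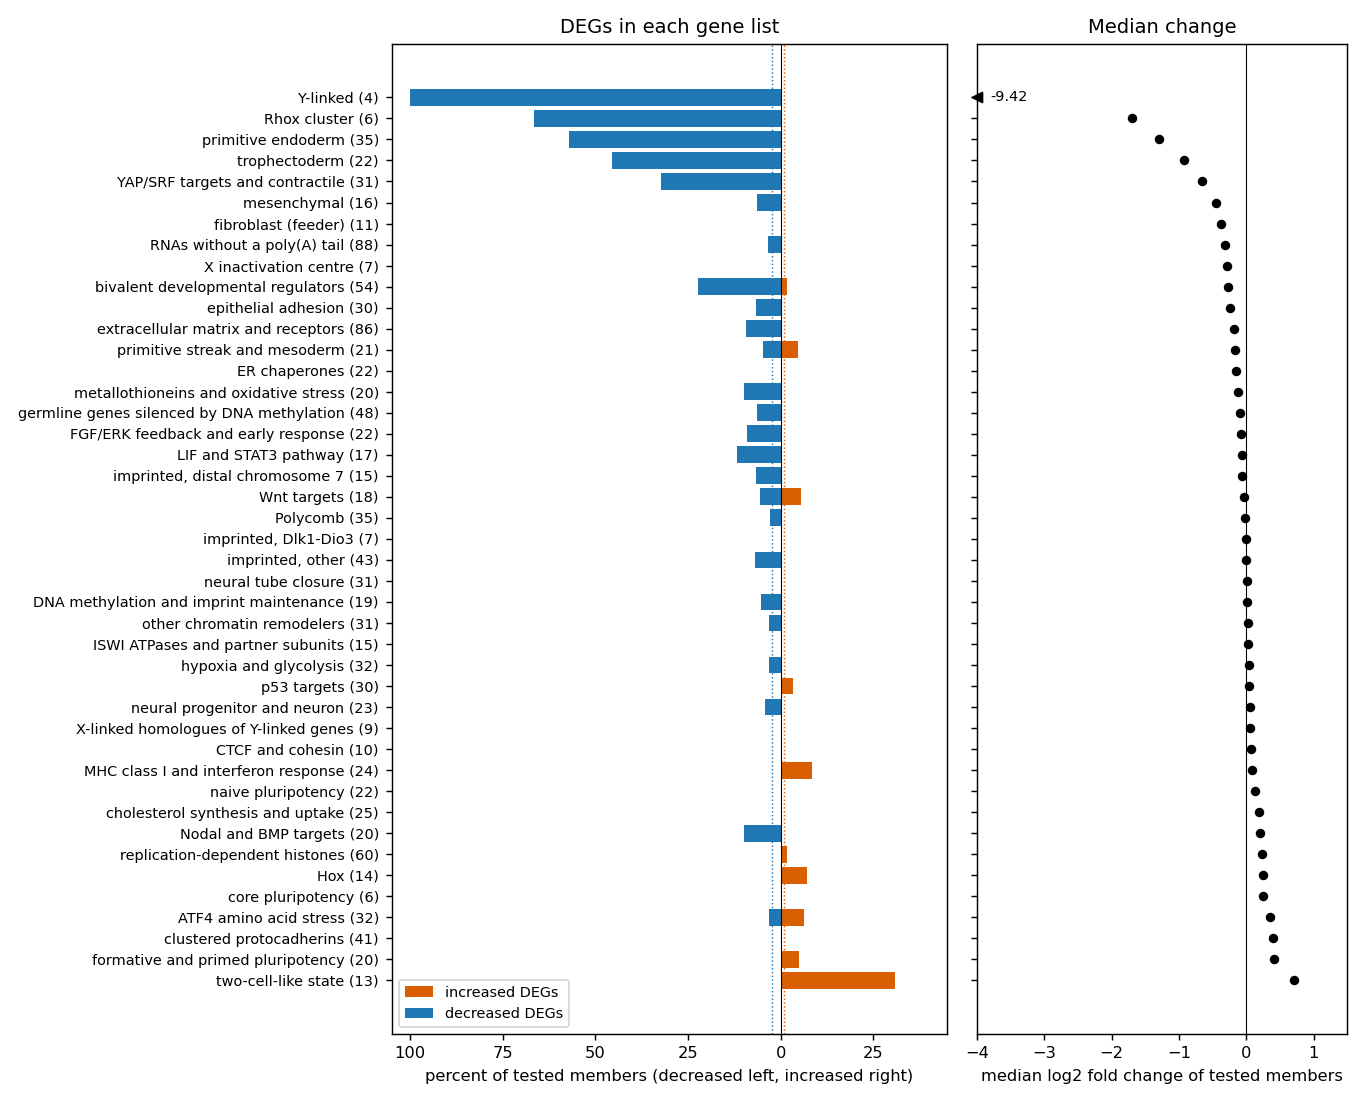
Left, share of the tested members of each gene list (percent, tested members in brackets) that were decreased (blue, to the left) or increased DEGs (orange, to the right), with dotted lines at the 2.33% and 0.784% of all genes. Right, median log2 fold change of the tested members, with the Y-linked median of -9.42 beyond the axis. Y-linked, Rhox, primitive endoderm, trophectoderm and YAP/SRF genes stand at the decreased end and the two-cell-like state at the increased end.

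Beyond the lists, which hold 92 of the 488 DEGs, the rule named further genes with large decreases. Tinagl1, a basement membrane protein, was at 16.6, 17.7 and 19.3 normalized CPM in WT and at 1.74, 1.11 and 1.37 in the libraries labelled Cecr2Δ (log2 fold change -3.68, SE 0.12, edgeR adjusted p = 7.77e-19). Slc34a2, a phosphate transporter, fell from 4.33, 5.24 and 4.37 to 0.249, 0.438 and 0.279 (log2 fold change -3.81, SE 0.22, edgeR adjusted p = 7.44e-13), and Bmper, a secreted BMP-binding protein, from 8.37, 7.22 and 6.98 to 0.604, 0.584 and 0.502 (log2 fold change -3.74, SE 0.16, edgeR adjusted p = 7.54e-16). No Cecr2Δ-labelled library of these genes came near the WT libraries. Vnn1, a pantetheinase (-3.96), Fxyd3, an ion pump regulator (-3.95), and Insrr, an insulin receptor relative (-3.67), fell at levels of about 1 normalized CPM, as log2 fold changes. Ctsj, a placental cathepsin, was at 1.02, 0.781 and 0.331 in WT and had 1 count in all in Cecr2Δ, a ratio of 71.5 (95% exact interval 12.4 to 2866), while WT libraries of the other batches reached only 0.111, and it could not be tested without WT library 1 or 2. Lemd1, picked after its values were seen, was another gene raised in WT of batch D, at 14.3, 14.5 and 12.6 there, 2.38, 2.86 and 2.12 in Cecr2Δ and 4.33 to 6.94 in the other WT libraries. Promoters of DEGs had a median CpG number of 9 in a 250 base window for decreased and 6 for increased DEGs, against 14 for all genes tested.

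A larger share of the increased than of the decreased DEGs differed from their change in Rsf1Δ and Tip5Δ. Each line was set against the WT libraries of its own batch, so that the changes share no library, and the difference of the changes was tested in the same edgeR model. Over all genes, the change differed from that in Rsf1Δ for 658 (4.2%), being higher in the libraries labelled Cecr2Δ for 507 and lower for 151, and from that in Tip5Δ for 380 (2.42%), higher for 264 and lower for 116. Of the 123 increased DEGs, 63 (51.2%) differed from Rsf1Δ and 57 (46.3%) from Tip5Δ, and the medians of these 123 genes were -0.15 in Rsf1Δ and 0.028 in Tip5Δ. Of the 365 decreased DEGs, 46 (12.6%) and 81 (22.2%) differed, and the medians were -1.51 in Rsf1Δ and -1.24 in Tip5Δ. As the DEGs were chosen by their change in the libraries labelled Cecr2Δ, a difference in that direction is favoured for them. Ccnd2 had log2 fold changes of 1.62 in the libraries labelled Cecr2Δ, -0.42 in Rsf1Δ and -0.78 in Tip5Δ (edgeR adjusted p of the differences 9.86e-14 and 3.24e-15). Aurkc had 2.21, 0.16 and -1.25 (0.0028 and 0.000668), in the same order. Gata3 differed from Tip5Δ (-2.99 against -0.35, edgeR adjusted p = 0.000168), and Gata4 from neither by over 2-fold (-2.19, -1.32 in Rsf1Δ and -2.26 in Tip5Δ). Of the Y-linked genes, Uty was at 0 counts in both Rsf1Δ libraries and had a log2 fold change of -1.24 in Tip5Δ, and its change differed from the latter (edgeR adjusted p = 2.44e-16).

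**Figure D5:**
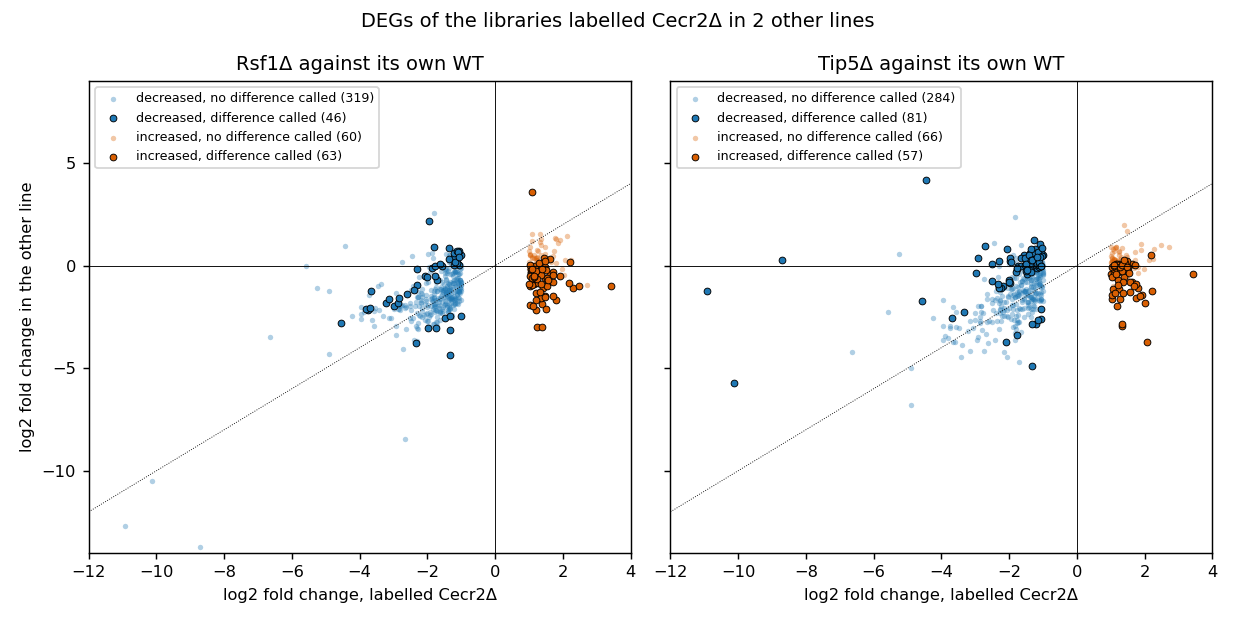
Log2 fold change of the 488 DEGs in the libraries labelled Cecr2Δ (horizontal axis) against that in Rsf1Δ (left) and Tip5Δ (right), each over its own WT, with decreased DEGs in blue, increased DEGs in orange, and a black rim where the difference of the 2 changes was called. The dotted line marks equal changes, along which many decreased DEGs lie, while the increased DEGs spread around 0 in both other lines.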

How the data were processed

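RNA of mESCs was measured by RNA-seq, per the labels of poly(A) RNA, though batch C held RNAs without a poly(A) tail at high levels. The authors aligned reads to mm10 with QuasR (Rhisat2, spliced mode; the submitters' notes name HISAT2 and bcl2fastq 2.17), counted them per knownGene gene and deposited these counts, not normalized, for 24594 genes. How reads were assigned, and whether by strand, is not given in the sources used here, and the labels name a stranded TruSeq mRNA kit where the methods name TruSeq RNA v2. Gene IDs were matched to RefSeq (24570 matched). Groups and batches came from the labels. In R 4.3.3 with edgeR 4.0.16, genes were filtered with filterByExpr by genotype (15682 kept), scaled with TMM factors and fitted with the legacy quasi-likelihood model, which had a batch and a genotype term and used all 24 libraries, whose common biological coefficient of variation was 0.0567. P-values were adjusted over all genes tested with the Benjamini-Hochberg method, and DEGs were over 2-fold higher or lower (1 on the log2 scale) with an adjusted p under 0.01. The SE of a log2 fold change is its size over the square root of the F statistic. Steps were tested on simulated data. No replicate pair of batch D was counted as 1 sample, since the chi-square statistic per gene of their counts was 3.84 to 20.4, where sampling noise gives about 1.

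The comparison, the 43 gene lists (9 symbols had no match) and the tests were chosen with earlier results of these data known. Named were Cecr2, its 5 tested neighbours on each side, Smarca5, Smarca1, the 6 core pluripotency genes, Y-linked genes, Xist, up to 12 largest increases and decreases whose groups did not overlap and whose mean was at least 10 counts, and by the same conditions up to 4 DEGs per list, or 2 members by adjusted p where a list had none. Other genes named are fixed cell type markers, complete a list's DEGs or were chosen after their values were seen. Alternatives were DESeq2 1.42.0, edgeR's newer quasi-likelihood fit, library size only, no filter, at least 1 CPM in 3 libraries, only batch D, no batch term, the replicate block, glmTreat, no fold minimum and leaving out each library, and, added after seeing the data, batch C left out and the range of WT libraries. Motifs were searched in windows of RefSeq (GRCm38.p6). Accessibility, binding and contact data were not used here, and a few genes counted in the totals are not reported here by name.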

Additional observations from a re-analysis of the deposited data

Results flagged for a closer look

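The change in the libraries labelled Cecr2Δ differed from that in Rsf1Δ for 658 genes and from that in Tip5Δ for 380, by a contrast of the changes in edgeR's model (a difference over 2-fold and an adjusted p under 0.01). Among the 120 genes named by the rule, 32 differed from Rsf1Δ and 29 from Tip5Δ, against 4.2% and 2.42% of all tested genes. Many of the 120 were named for their change in the libraries labelled Cecr2Δ, so a difference is favoured for them. All values below are log2 differences, the change in the libraries labelled Cecr2Δ minus the change in the other line, so that a positive value means a higher change in the former. The genotype of each line was measured in 1 batch and 1 clone, and clone, batch and genotype cannot be told apart.

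Among the named genes, increased DEGs made up most of the positive differences. Against Rsf1Δ these were 3.62 for Fgf5, 3.47 for Kcns2, 3.02 for Serpinf1, 2.43 for Fut1 and 2.11 for Ifitm1, followed by 2.05 for Ccnd2, 2.04 for Aurkc, 2.01 for H2-Q2, 1.73 for Hoxc13 and 1.53 for Kdr. Against Tip5Δ they were 3.83 for Rac2, 3.45 for Aurkc, 2.89 for Acot3, 2.65 for Kdr and 2.40 for Ccnd2, and 1.77 for Ifitm1, 1.68 for Serpinf1, 1.4 for Hoxc13 and 1.06 for Pycr1. The two-cell-like genes had large positive differences from Tip5Δ, at 5.80 for Zscan4c, 4.17 for Zscan4d, 3.35 for Zscan4a and 3.34 for Gm8300, where each of these genes had a negative change in Tip5Δ. No gene of that list differed from its change in Rsf1Δ at these thresholds.

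Among the named decreased DEGs, lower changes than in Rsf1Δ were found with -1.78 for Ankrd1, -1.68 for Slc34a2, -1.64 for Tinagl1, -1.58 for Bmper and -2.43 for Insrr, and with -1.23 for Sox17, -1.21 for Gata6 and -1.02 for Col4a2. Lower changes than in Tip5Δ were found with -2.85 for Ankrd1, -2.64 for Gata3, -1.76 for Hand1, -1.45 for Krt7 and -1.30 for Krt18, and with -1.16 for Ccn1 and -1.13 for Tinagl1. Other decreased DEGs had higher changes than in Rsf1Δ, with 1.46 for Krt7, 1.13 for Krt8, 1.31 for Rhox6 and 1.08 for Igf2, and Smarca2 had a higher change than in Tip5Δ, with 1.07. Timp3, a matrix protease inhibitor, was no DEG and differed from Rsf1Δ by 1.38.

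The Y-linked genes differed from Tip5Δ, with -9.68 for Uty, -8.98 for Eif2s3y and -4.39 for Ddx3y, and were not called against Rsf1Δ. With 1 count of Uty in all libraries labelled Cecr2Δ, the size of its fitted difference depends on the prior count. Germline and X-linked genes differed from Rsf1Δ by -1.78 for Sohlh2, -1.43 for Rhox13, -1.28 for Tsix, -1.26 for Tex13b and -1.07 for Xist, and Tex13b differed from Tip5Δ by -1.65. The small nucleolar RNAs Snord69 and Snord12 differed from Rsf1Δ by -1.85 and -1.81, and Snord12 from Tip5Δ by -1.5. Of the remaining genes, Dlk1 differed by -1.15 from Rsf1Δ and by -1.07 from Tip5Δ, and Id2 and Phf19 differed from Tip5Δ by -1.73 and -1.27. Groups of 3 libraries were too small for a test of single outlying libraries.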

How the results depend on the processing

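The number of DEGs was within 1.5 times the reported 488 under 7 of the 9 planned settings that use all libraries, from 420 to 616, and was 392 with only batch D, and with 1 library left out it was 424 to 470 (102 to 130 increased and 316 to 349 decreased). A test against a 2-fold change (glmTreat) called 146 genes, 10 increased and 136 decreased, and no fold minimum called 2878, 1493 higher and 1385 lower. For the differences from Rsf1Δ these settings gave 84 and 2520 genes, and for those from Tip5Δ 58 and 1313, with ranges of 592 to 671 and 342 to 401 when 1 library was left out. Of the increased DEGs, 53 had a mean outside the range of all 11 WT libraries, and 57 outside that of the 9 without batch C. These settings and those on batch C below were added after seeing the data. The replicate numbers did not pair the libraries: with group means removed, Cecr2Δ and WT libraries of the same number correlated at -0.148, -0.0642 and -0.0868, and with the replicate number as a block there were 451 DEGs, 113 increased and 338 decreased, with 582 differences from Rsf1Δ and 322 from Tip5Δ. Without batch in the model, 310 of the 488 DEGs were called and 473 kept their sign, Cecr2 had a log2 fold change of 0.21, and 40 other named genes no longer had an adjusted p under 0.01. In that model the sign turned for the DEGs Fgf5 (-0.15), H3c14 (-0.39) and Hoxc13 (-0.43), and for genes that were not called it was 0.31 for Pou5f1, 0.12 for Dlk1, 0.087 for Hdhd5, -0.033 for Bcl2l13, -0.084 for Ccdc77, -0.1 for Kdm5a and -0.10 for Usp9x. With batch C left out as well, 647 genes were DEGs, 81 increased and 566 decreased, Cecr2 had 0.20, and the sign turned for Fgf5 (-0.18), H3c14 (-0.19), Hoxc13 (-0.56) and Gdf15 (-0.074), and among genes not called for Pou5f1 (0.28), Hdhd5 (0.13), Bcl2l13 (-0.090), Ccdc77 (-0.064), Mical3 (-0.0049) and Smarca5 (0.0069). These settings compare the Cecr2Δ libraries with the WT libraries of several batches, and the cause was not tested. With the batch term kept and batch C left out, 468 of the 488 DEGs were called among 478, and 580 differences from Rsf1Δ and 345 from Tip5Δ. With 1 library left out, the sign turned for uncalled genes with values near 0, with ranges from -0.045 to 0.019 for Hdhd5, from -0.086 to 0.027 for Pou5f1, from -0.97 to 0.096 for Slc25a18 and from -0.073 to 0.035 for Smarca1. Depth limits the precision at low levels, where 73 increased and 83 decreased DEGs were under 1 normalized CPM in WT, and 3 counts there correspond to 0.0854 to 0.0992 normalized CPM.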
